A study of Mus musculus with 3 samples.

Results

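The genes described are the autosomal protein-coding members of 6 families of developmental transcription factors, taken from the GENCODE M21 annotation of the mouse genome build mm10 by symbol: Sox, Pax, Lhx, Dlx, Tbx or Nkx followed by a number, with 3 Sox genes left out. They number 64 of the 20807 autosomal protein-coding genes, with 15 Sox, 9 Pax, 8 Lhx, 6 Dlx, 12 Tbx and 14 Nkx genes. The rule uses symbols and no measured value, but the set was chosen with earlier results of these data known. The data are H3K4me3 ChIP-seq from whole adult testis of (C57BL/6J x CAST/Eij)F1 males, called (B6xCAST)F1-Prdm9 Hum/Cast, which carry a humanized and a CAST allele of Prdm9 and were 23 weeks old. Prdm9 encodes the methyltransferase that places H3K4me3 at recombination hotspots in meiosis, and the humanized allele has the zinc fingers of the human protein. There were 2 ChIP libraries and 1 input library of that 1 condition, so nothing could be compared between genotypes or treatments. The study's methods describe the ChIP libraries as coming from 2 littermates, while the series' own design text reads as 1 male with 1 library per testis, so the spread between the libraries may be technical.

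H3K4me3 is trimethylation of histone H3 at lysine 4, which marks the starts of active genes and is also found, together with the Polycomb mark H3K27me3, at the starts of many silent developmental regulators in embryonic stem cells and in germ cells. Genes of the 6 families encode DNA-binding proteins that specify cell types in the embryo, with an HMG box in Sox proteins, a paired domain in Pax proteins, a LIM-homeodomain in Lhx proteins, a homeodomain in Dlx and Nkx proteins and a T-box in Tbx proteins. Most are known for work outside the testis, and a few are known in the gonad. H3K4me3 at a gene start is not a level of its RNA, and RNA was not analysed here. In chromatin of a whole testis, a mark carried by few cells and a weaker mark carried by many cells cannot be told apart.

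The deposited data hold 101978 narrow peaks, each given as a centre with the number of fragments that overlap it in ChIP replicate 1, in ChIP replicate 2 and in the input, and 98334 broad peaks, given as positions. Summed over all narrow peaks, the centres were overlapped by 17621116 and 19094837 fragments in the ChIP replicates and by 1250138 in the input. These sums are not library depths, and the fragments are not scaled between libraries. Germ cell promoters were marked. All 10 genes of a germ cell marker list had a broad peak at a start, against 80.1% of the 20807 genes. A narrow peak was present at 9, against 77.3% of all genes. Their median coverage was 416 fragments, below the 791 of all genes with a narrow peak. The highest was the synaptonemal complex gene Sycp3, with 2006 and 2095 fragments in the ChIP replicates, against 17 in the input, and the lowest the protamine gene Prm1, with 126 and 125, against 8. Of the lists for somatic cells of the testis, all 7 Sertoli cell genes, all 6 Leydig cell genes and all 6 genes of myoid, vascular and macrophage cells had a broad peak, with median coverages of 265, 48.5 and 27 fragments where a narrow peak was present. Of 18 genes of other differentiated tissues, 9 (50.0%) had a broad peak at a start and 5 (27.8%) a narrow one. What these other cell types contribute to the peaks of the 64 genes was not tested.

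The promoters shown here are examples from the high and the low part of the range described below, and of genes with no narrow peak near a start. Each is the RefSeq promoter (GRCm38.p6, which has the coordinates of mm10), from 250 bases before to 50 after a transcript start, written 5′ to 3′ on the strand of the gene, with every CpG dinucleotide in capitals. Nkx6-2 (chr7:139582748-139583047, minus strand) and Sox13 (chr1:133424163-133424462, minus strand) belong to strongly covered members, and Pax7 (chr4:139832919-139833218, minus strand) and Nkx2-3 (chr19:43612075-43612374, plus strand) to weakly covered ones. Sox4 (chr13:28953650-28953949, minus strand) had a broad peak but no narrow centre near its start, and Tbx10 (chr19:3992502-3992801, plus strand) and Tbx19 (chr1:165160724-165161023, minus strand) had neither. They hold 32, 40, 17, 15, 12, 4 and 7 CpG dinucleotides in the order printed.
Nkx6-2: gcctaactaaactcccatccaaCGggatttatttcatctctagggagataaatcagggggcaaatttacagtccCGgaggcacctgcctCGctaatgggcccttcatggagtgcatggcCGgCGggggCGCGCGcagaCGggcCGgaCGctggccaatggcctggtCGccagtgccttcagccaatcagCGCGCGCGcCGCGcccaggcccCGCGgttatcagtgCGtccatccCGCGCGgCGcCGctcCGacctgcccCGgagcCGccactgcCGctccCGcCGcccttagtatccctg
Sox13: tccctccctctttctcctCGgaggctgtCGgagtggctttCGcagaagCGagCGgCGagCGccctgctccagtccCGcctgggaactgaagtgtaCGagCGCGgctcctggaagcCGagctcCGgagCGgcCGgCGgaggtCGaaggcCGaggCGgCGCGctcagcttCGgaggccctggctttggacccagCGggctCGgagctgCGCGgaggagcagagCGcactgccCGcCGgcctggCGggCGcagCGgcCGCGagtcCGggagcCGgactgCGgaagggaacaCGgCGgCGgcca
Pax7: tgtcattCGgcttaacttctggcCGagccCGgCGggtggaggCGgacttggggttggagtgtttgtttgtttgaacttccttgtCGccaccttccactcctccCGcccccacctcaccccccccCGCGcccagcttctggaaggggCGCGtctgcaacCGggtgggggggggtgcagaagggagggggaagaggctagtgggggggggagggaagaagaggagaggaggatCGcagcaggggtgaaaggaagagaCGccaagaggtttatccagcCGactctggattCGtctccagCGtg
Nkx2-3: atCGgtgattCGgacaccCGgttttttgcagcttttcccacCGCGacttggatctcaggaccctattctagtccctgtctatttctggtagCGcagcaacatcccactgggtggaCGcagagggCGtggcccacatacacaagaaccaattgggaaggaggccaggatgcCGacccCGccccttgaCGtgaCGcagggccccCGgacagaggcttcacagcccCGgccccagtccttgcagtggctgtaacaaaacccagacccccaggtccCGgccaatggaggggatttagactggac
Sox4: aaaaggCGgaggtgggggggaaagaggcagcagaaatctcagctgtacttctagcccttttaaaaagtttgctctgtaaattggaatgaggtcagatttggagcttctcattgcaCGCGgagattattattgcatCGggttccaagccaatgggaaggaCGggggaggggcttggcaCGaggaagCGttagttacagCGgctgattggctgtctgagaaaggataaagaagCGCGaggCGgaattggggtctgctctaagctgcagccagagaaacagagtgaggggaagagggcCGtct
Tbx10: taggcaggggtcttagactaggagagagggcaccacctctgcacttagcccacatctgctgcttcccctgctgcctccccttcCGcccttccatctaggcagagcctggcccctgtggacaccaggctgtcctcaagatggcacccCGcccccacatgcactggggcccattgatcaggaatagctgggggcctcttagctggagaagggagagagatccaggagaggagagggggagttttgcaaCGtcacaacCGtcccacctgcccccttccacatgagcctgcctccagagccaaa
Tbx19: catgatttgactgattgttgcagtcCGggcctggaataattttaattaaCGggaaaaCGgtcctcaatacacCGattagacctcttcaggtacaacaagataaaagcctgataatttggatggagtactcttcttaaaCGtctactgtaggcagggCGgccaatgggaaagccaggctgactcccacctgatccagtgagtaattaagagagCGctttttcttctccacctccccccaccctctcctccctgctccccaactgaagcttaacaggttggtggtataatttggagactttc

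H3K4me3 was present at the starts of nearly all of these genes, and it was low. A narrow peak centre lay within 1 kb of an annotated transcript start of 58 of the 64 genes (90.6%), against 77.3% of all 20807 genes. A broad peak came within 1 kb of a start of 61 (95.3%), against 80.1% of all genes. Over the 58 genes with a narrow peak, the strongest start peak had a median of 193 fragments in replicate 1 and 217.5 in replicate 2, against 19 in the input. All 58 had more fragments in each ChIP replicate than in the input at a start peak, which is 90.6% of the members, against 76.6% of all genes and 99% of all genes with a narrow peak. Coverage below is the mean of the ChIP replicates at the strongest start peak, and its median over the members was 205 fragments (quartiles 118 and 332, lowest 13.5, highest 839). For all genes with a narrow peak the median was 791 (quartiles 248 and 1510), so the members' median was 0.26 times that of all genes. At the same peaks the input had medians of 19 fragments in members and 20 in all genes.

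Among genes with a peak the members filled the lower part of the range. With all genes split at the quartiles of coverage, 33 of the 58 members lay at or below 248 fragments, 24 between 248 and 791, 1 between 791 and 1510 and 0 above. The 1 member above the median of all genes was Nkx6-2, where the background is 50% by construction. The authors' enrichment, estimated from both replicates relative to local background, with 0 for no enrichment, had a median of 9.09 over the members, against 37.9 over all genes. It was above 20 for 13 of the 58 members (22.4%), against 67.6% of all genes with a peak. The 39 Hox genes, another set of embryonic patterning genes, had narrow peaks at 38 starts with a median coverage of 145, and the 71 ribosomal protein genes at 70 starts with a median of 1610. No test was made of the members as a set.

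**Figure D1:**
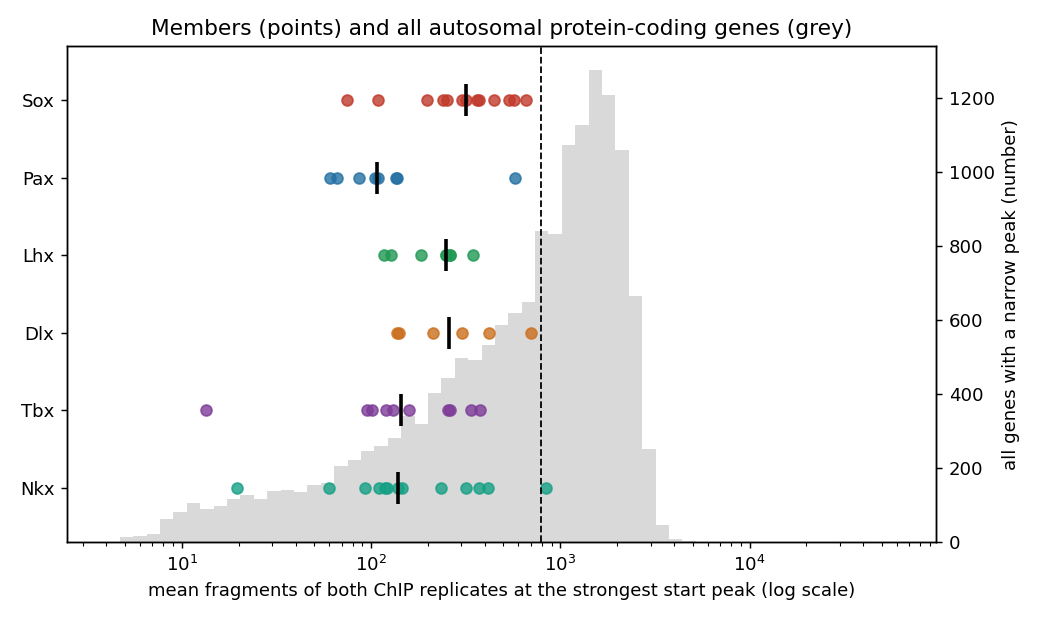
Mean ChIP fragments at the strongest start peak (log scale) of each member, as points in a row per family with the family's median as a bar, over a grey histogram of all autosomal protein-coding genes with a narrow peak (number of genes on the right axis), whose median of 791 is the dashed line. Family medians lie between 107 in Pax and 318 in Sox genes, and 1 point, Nkx6-2 at 839, is right of the line.

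The strongest start peaks belonged to genes named here for roles in the nervous system, vessels, jaw or blood. Dlx6 and Sox13 are also on the list of gonad or germ cell genes below, and roles of the others in the testis were not examined. Nkx6-2, a homeodomain factor of the ventral neural tube and of oligodendrocytes, had 855 and 823 fragments in the ChIP replicates, against 20 in the input. Dlx6, which patterns the lower jaw, had 685 and 724, against 21 in the input. Sox18, a factor of lymphatic and blood vessel endothelium, had 637 and 675, against 26. Pax5, the factor of B cell identity, had 560 and 589 fragments in the ChIP replicates, against 18 in the input. Sox13, a Sox gene of the D group known in T cells, had 530 and 615, against 14. In both replicates these 5 lay well above the members' upper quartile of 332, and the ranges of the scaled replicates did not overlap between Nkx6-2 and Dlx6, Dlx6 and Sox18 or Sox18 and Pax5.

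At the low end were genes of muscle, heart, gut and spleen. Coverage did not follow tissue throughout, with 336 at Tbx18 of the heart and 117 at Lhx5 of the forebrain. Pax3 and Pax7, sister genes that mark muscle progenitors and neural crest, had 66 and 67 and 62 and 60 fragments in the ChIP replicates, against 19 and 11 in the input. Nkx2-3, which is needed for spleen and gut lymphoid tissue, had 54 and 66, against 12. Nkx6-3, a gene of the stomach epithelium, had 22 and 17 fragments, against 9 in the input, and a deposited enrichment of 1.91. Tbx5, the factor of heart and forelimb, had 9 and 18 fragments at its strongest start peak, against 16 in the input, where the deposited enrichment was 0.661. Its other start peak had 10 and 15, against 5 in the input, so Tbx5 counts as a gene with a peak on very few fragments.

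Between these ends the order was mostly within the spread of the replicates. Of the 57 pairs of neighbours in the order of coverage, the replicate ranges, scaled to equal totals, overlapped in 47 and stayed apart in 10. Apart from the 3 pairs named above, the separated neighbours included Sox11 above Sox1, Dlx2 above Lhx8, Dlx4 above Sox21, Sox21 above Lhx3, Lhx3 above Tbx15 and Nkx2-3 above Nkx6-3. Across the 58 members the replicates had a Spearman correlation of 0.97, given as a description of points from the same 2 libraries, and a median coefficient of variation of 5.45%.

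**Figure D2:**
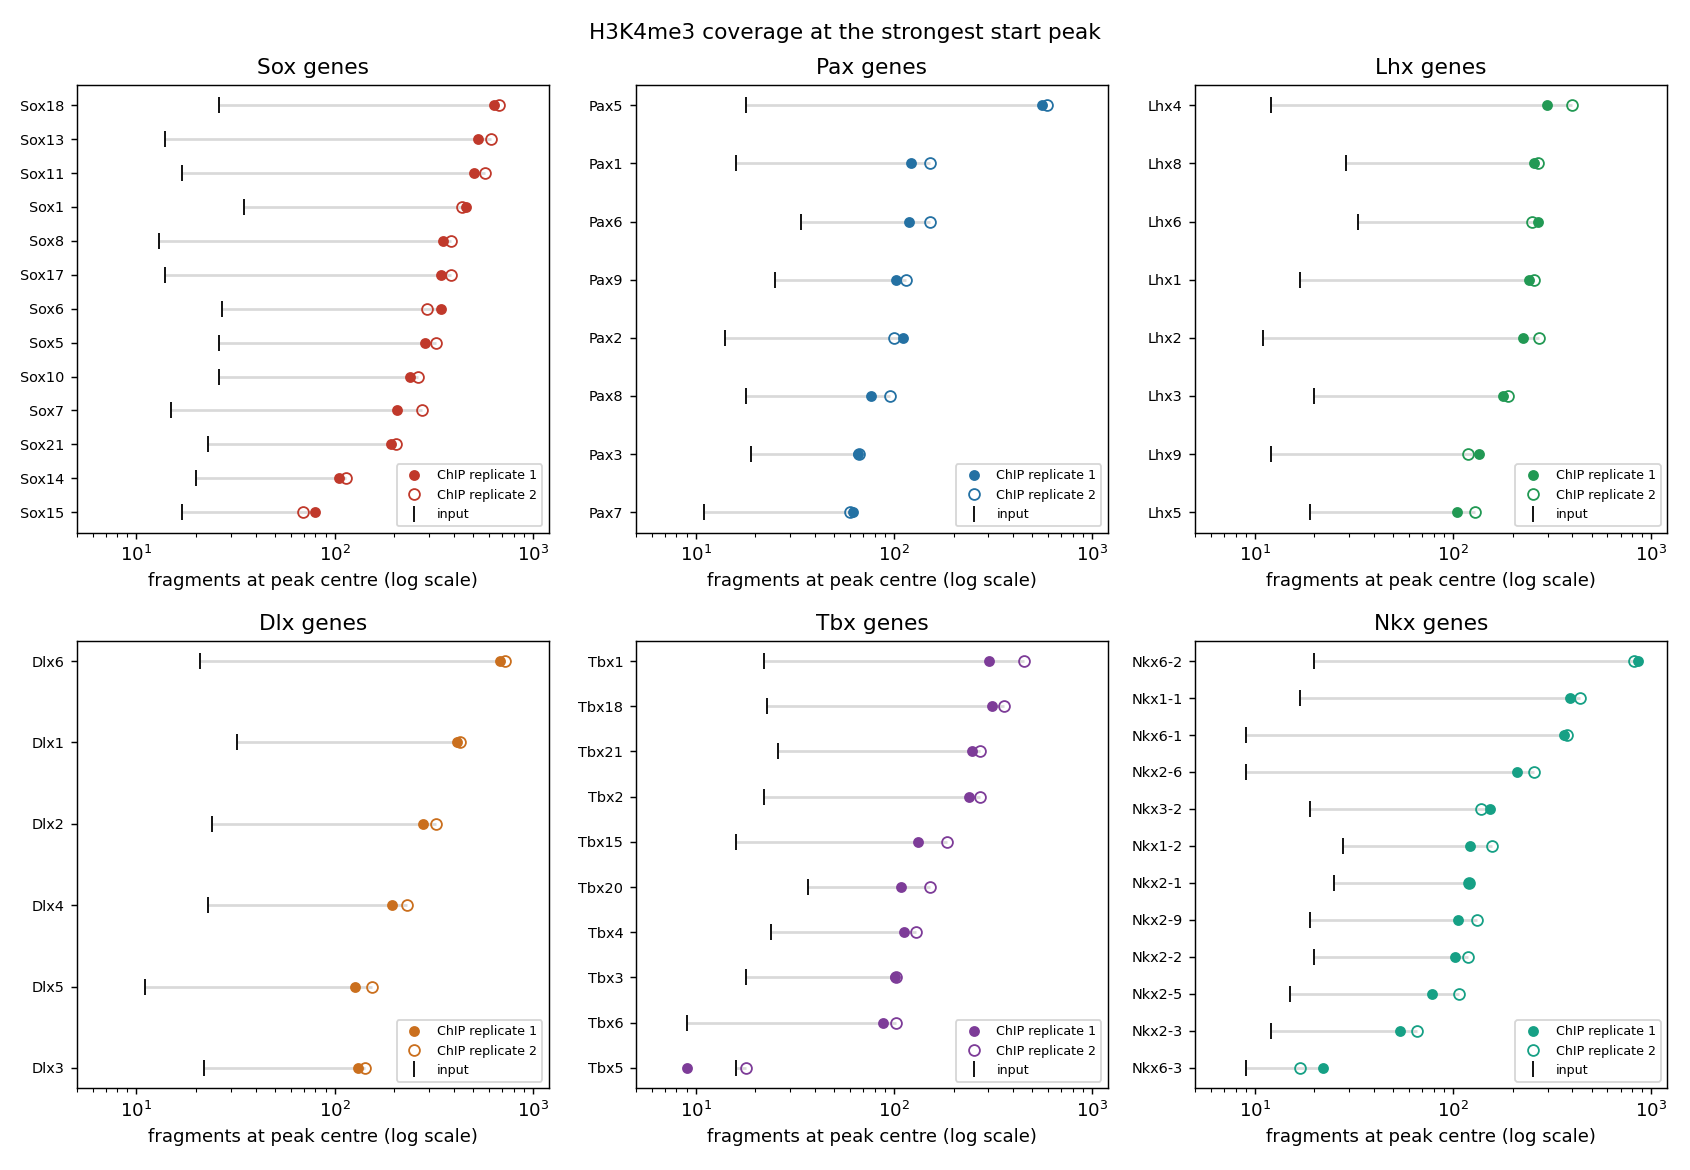
Fragments at the strongest start peak of 57 of the 58 members with a narrow peak, in ChIP replicate 1 (filled), ChIP replicate 2 (open) and the input (tick), on a log scale and grouped by family, with a grey line between the input and the higher replicate. The input values lie between 9 and 37, and the ChIP values run between 9 fragments at Tbx5 and 855 at Nkx6-2.

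By the exact test, the replicates differed beyond counting noise at 1 member. Tbx1, a gene of the pharyngeal arches, had 301 and 456 fragments in ChIP replicates 1 and 2, against 22 in the input, a log2 ratio of replicate 2 over 1 of 0.60 with 1 added to each and before scaling. Its exact two-sided binomial test, with Benjamini-Hochberg adjustment over all 101978 narrow peaks, gave an adjusted p of 0.00223. It was the 1 call among the 58 members (1.72%), against 4.46% of the strongest start peaks of all genes and 0.804% of all narrow peaks, and 7 of the 58 (12.1%) were under 0.05 before adjustment, against 21.9% of the strongest start peaks of all genes. With a log2 ratio beyond 2 SD over all narrow peaks as the limit, 0 members were called. After scaling to equal totals, replicate 2 was above replicate 1 at 36 of 58 members (62.1%), against 48.6% of all genes, and the scaled ratio ran between 0.71 at Nkx6-3 and 1.85 at Tbx5. This test compares 2 libraries and no conditions. It calls a given ratio less readily at low coverage, and the members' median coverage was 205, against 791 over all genes. The shares of calls therefore do not compare replicate agreement between members and all genes.

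Among the families, Sox genes had the highest coverage and all 15 had a broad peak. Their median was 318 fragments over the 13 with a narrow peak, and their highest and lowest members were Sox18 and Sox15. Sox15, the only Sox gene of group G and known in muscle regeneration, had 80 and 69 fragments in the ChIP replicates, against 17 in the input. In the F group of endothelial and endoderm factors (Sox7, Sox17 and Sox18) the median was 364, in the D group (Sox5, Sox6 and Sox13) it was 318, and in the B group of neural factors (Sox1, Sox14 and Sox21) 198. The range within the B group was wide. Sox1 had 459 and 438 fragments, and Sox14 had 105 and 114. Of the C group, Sox11 had its stronger centre 910 bp before its start with 503 and 575 fragments, near the limit of 1 kb, and Sox4 and Sox12 had their centres beyond it.

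Pax genes were lower, with a median of 107 over 8 of 9 members, and Pax5 stood apart from the other 7. The next Pax gene, Pax1, a gene of the sclerotome and the thymus, had 122 and 153 fragments, against 16 in the input. Pax9, the partner of Pax1 in the pharyngeal pouches and teeth, had 102 and 115, and Pax6, the factor of eye and pancreas, 119 and 152. Pax2 and Pax8, which act in kidney and thyroid, had 111 and 100 and 77 and 96. Pax4, of pancreatic beta cells, had no peak at its start.

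The LIM-homeodomain genes all had peaks, with a median of 248 and a narrow range. Lhx4, a pituitary gene, was highest with 299 and 396 fragments in the ChIP replicates, against 12 in the input. Lhx5, a forebrain gene, was lowest with 105 and 129, against 19. Lhx1, a gene of head and kidney formation, had 242 and 256, and Lhx6 of cortical interneurons had 269 and 251. The highest and lowest Lhx coverages, 347.5 and 117, lay inside the range of every other family but Dlx, whose lowest was 136.5.

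The 6 Dlx genes, which act in forebrain, jaw and skin, had a median of 258 and lie in 3 convergent pairs. Dlx3, the lowest, had 131 and 142 fragments, against 22 in the input. In the pair of Dlx5 and Dlx6, which spans 18.8 kb, Dlx6 had 685 and 724 fragments and Dlx5 had 127 and 155. In the pair of Dlx1 and Dlx2 the values were close by comparison, with 414 and 431 at Dlx1 and 280 and 326 at Dlx2. Dlx4 had 194 and 232, so in each pair the replicates of the higher gene did not overlap those of the lower.

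T-box and Nkx genes reached the lowest values. Tbx genes had a median of 145 over 10 of 12 members, with Tbx1 highest and Tbx5 lowest. Tbx18, of the heart and ureter, had 314 and 358 fragments, Tbx21, the T-bet factor of T helper cells, 248 and 272, and Tbx6, of paraxial mesoderm, 88 and 102. Nkx genes had a median of 140 over 13 of 14 members, with Nkx6-2 highest and Nkx6-3 lowest, which are members of the same group. Nkx6-1, a gene of beta cells and motor neurons, had 365 and 375 fragments, against 9 in the input, so the 3 Nkx6 genes spanned 19.5 to 839. The 6 Nkx2 genes with a peak had a median of 115, among them Nkx2-1 of thyroid and lung with 121 and 121 and Nkx2-5 of the heart with 78 and 107.

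For genes with a known role in gonads or germ cells, a list of 11 was drawn from general knowledge. It may leave others out, so its median and range hold for the listed genes only. Broad peaks were present at all 11 starts. The median coverage was 311 over the 10 with a narrow peak, against 205 over all members with a peak, which include these 10. Their coverages ran between 127 at Lhx9 and 704.5 at Dlx6. Sox8, expressed in Sertoli cells, had 353 and 387 fragments in the ChIP replicates, against 13 in the input. Lhx9, needed for the formation of the mouse gonad, had 135 and 119 fragments, against 12, and Lhx8, a regulator of oocytes, had 256 and 269, against 29. Lhx2 had 226 and 270, Sox17 342 and 387, Sox5 284 and 324 and Sox6 345 and 291 fragments in the ChIP replicates. Sox13, Dlx5 and Dlx6 have their values above. None of these 10 passed the median of all genes, 791, within 1 kb of a start, while Sox4, the other gene of the list, had a centre of 948 and 976 fragments beyond that limit.

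Of the 6 genes with no narrow peak near a start, 3 had strong H3K4me3 slightly farther away. Sox4, a factor of heart and lymphocyte development, had a centre 1423 bp from its start with 948 and 976 fragments in the ChIP replicates, against 25 in the input, inside its broad peak of 5100 bp. Nkx2-4, a close relative of Nkx2-1, had one at 1172 bp with 855 and 855, against 22, and Sox12 one at 1141 bp with 517 and 632, against 10. Sox4 was above Nkx6-2, the highest in the order, in both replicates, Nkx2-4 overlapped it and Sox12 overlapped Pax5, so these 3 are outside it only through the limit of 1 kb. Pax4, Tbx10 and Tbx19 had no broad peak either. Their nearest centres were at 1836, 2971 and 1417 bp, with 14 and 28, 10 and 14 and 15 and 14 fragments in the ChIP replicates, against 6, 12 and 10 in the input. Tbx19 is the pituitary factor that switches on the ACTH precursor. On the inner side of the limit stood Sox6 at 946 bp and Sox11 at 910 bp.

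Other members were also strongest away from their starts. Over the whole gene body and 1 kb on each side, 62 members had a narrow peak, and in 22 of them (35.5%) the strongest centre lay more than 1 kb from every start, against 15.7% of all genes. This count was added after the start values were seen. With gene bodies in place of starts, the median coverage was 261 over the members, against 723 over all genes. Nkx2-5 had 414 and 404 fragments at a centre 2119 bp from its nearest start and 78 and 107 at the start. Nkx2-6, of the pharynx, had 609 and 600 at a centre 3191 bp into the gene and 211 and 257 at the start, and Pax9 had 520 and 580 at 4534 bp. Tbx5 and Nkx6-3, the lowest at their starts, had 261 and 275 and 166 and 203 fragments inside the gene. None of the 22 centres was within 1 kb of a start of another protein-coding gene, and 4 were near a start of a gene of another type, namely those of Nkx1-2, Nkx2-2, Pax2 and Pax5. At Pax2 that centre had 705 and 737 fragments and lay 76302 bp from its nearest start, beside the start of 1700039E22Rik. Of the 22 centres, 20 were in PRDM9-independent regions, which are described below, and the exceptions were Lhx5 and Tbx19. The same share over all genes is not given here.

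Broad peaks of the members were not narrow, in contrast to their low coverage. The widest broad peak at a start had a median of 3900 bp over 61 members (quartiles 2700 and 5100), against 3300 bp over all genes (quartiles 2100 and 5300), 1.18 times as wide. It was wider than 4000 bp in 29 of 61 members (47.5%), against 38.6% of all genes with a broad peak. Split at 2100, 3300 and 5300 bp, the quartiles of all genes, the members numbered 11, 12, 24 and 14 with the narrowest first. Coverage and width had a Spearman correlation of 0.43 over 58 members, against 0.45 over 16066 genes, a description of points that share libraries.

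**Figure D3:**
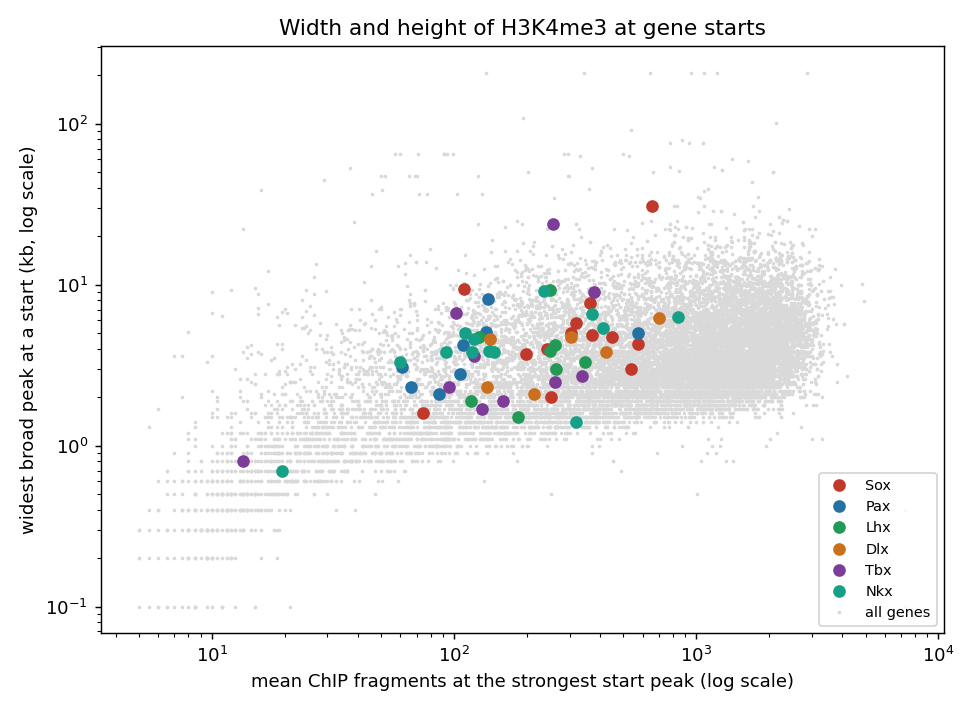
Width of the widest broad peak at a start against mean ChIP fragments at the strongest start peak, both on log scales, for the members, coloured by family, and for all autosomal protein-coding genes in grey. The members sit to the left in coverage, with 57 of 58 below 791 fragments, and in the middle of the range of widths, with Sox18 at 31000 bp and Tbx2 at 23900 bp on top.

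The widest domains were of different kinds. The 31000 bp around Sox18 (chr2:181668701-181699700) held 6 narrow centres with coverages between 73.5 and 1721.5 and also the starts of Lkaaear1, Rgs19 and Tcea2, so its width is shared with 3 other genes. The 23900 bp around Tbx2 (chr11:85828601-85852500), a cell cycle and heart gene, held 7 centres between 27 and 464 and the start of Gm11444. The 9400 bp around Sox14 held no other protein-coding start and 3 centres between 80.5 and 113, a wide and low domain. Lhx1, Nkx2-6, Tbx1, Pax1 and Sox17 followed with 9300, 9200, 9000, 8100 and 7700 bp, each with no other protein-coding start inside.

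Several members had more than 1 peak. More than 1 narrow centre lay near starts in 23 of 64 members (35.9%), against 18.3% of all genes, while the median number of annotated start positions was 2 in members and 3 in all genes. Pax6 had 5, with 119 and 152 fragments at the strongest and 25 and 16 at the weakest. Sox5, which acts with Sox6 in cartilage and has 3 marked starts, had 284 and 324, 103 and 105, and 23 and 30 fragments at them. Pax5 had 560 and 589 at an internal start, 94 and 101 at another internal start and 43 and 53 before the gene, so its high rank came from 1 of 3. At Lhx2 the centres were nearly equal, with 226 and 270 and 208 and 273.

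The 91 start peaks of the members fell on all parts of the genes. There were 28 in the untranslated part of an exon, 23 in a coding exon, 22 in an intron, 15 outside the gene and 3 in an exon of a noncoding transcript. The same shares over the start peaks of all genes are not given here, so these locations are not a trait of the members. The strongest centre lay downstream of its nearest start in 38 of 58 members (65.5%), against 77.4% of all genes. The downstream centres lay at a median of 236 bp in members, against 164 bp in all genes. None of the 58 strongest peaks was within 1 kb of a start of another protein-coding gene, against 16.8% of all genes, so no member shared its peak with a divergent protein-coding neighbour. A start of a gene not annotated as protein-coding lay within 1 kb of the strongest peak of 12 members (20.7%), against 12.7% of all genes with a narrow peak, among them Lhx1, Sox6 and Tbx3 with antisense genes named after them, and ChIP fragments cannot be told apart between such partners.

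Most start peaks belonged to regions that are marked whatever the Prdm9 allele. The authors' PRDM9-independent regions are the union of peak regions that pairs of mice with no Prdm9 allele in common share. A broad peak at a start overlapped such a region by at least 1 bp in 55 of 64 members (85.9%), against 74% of all genes. With an overlap of at least 50% of the broad peak the shares were 68.8% and 70.8%, so the members' higher share did not hold. For the strongest narrow centre the share was 50 of 58 (86.2%), against 92.2% of all genes with a peak. All 15 Sox, all 8 Lhx and all 6 Dlx genes overlapped a region, with 9 of 12 Tbx, 12 of 14 Nkx and 5 of 9 Pax genes. The 6 with a broad peak and no overlap were Pax3, Pax7, Pax8, Nkx2-3, Nkx6-3 and Tbx5, whose coverages of 13.5 to 86.5 all lay below the members' lower quartile of 118. Of all 91 start peaks, 24 (26.4%) were outside these regions, and the same share over the start peaks of all genes is not given here. Whether any of the 24 depends on the Prdm9 allele of these males was not tested.

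The spans that hold neighbouring members contained several narrow peaks each. The share of all narrow peaks that lie outside PRDM9-independent regions is not given here, so the counts below are not a trait of these spans. Over the 215 kb that span Tbx3 and Tbx5 there were 26 narrow peaks, of which 21 were outside PRDM9-independent regions. The strongest was inside Tbx5 with 261 and 275 fragments, and Tbx3, a limb and mammary gene, had 101 and 102 at its start. The locus of Nkx2-1, Nkx2-9 and Pax9 held 17 peaks over 181 kb, 10 of them outside such regions, and that of Nkx2-2, Nkx2-4 and Pax1 held 19 over 310 kb, 11 of them outside. Tbx2 and Tbx4, a hindlimb gene, had 11 peaks over 83.5 kb with 3 outside, and Tbx4 had 112 and 129 fragments at its strongest start peak.

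**Figure D4:**
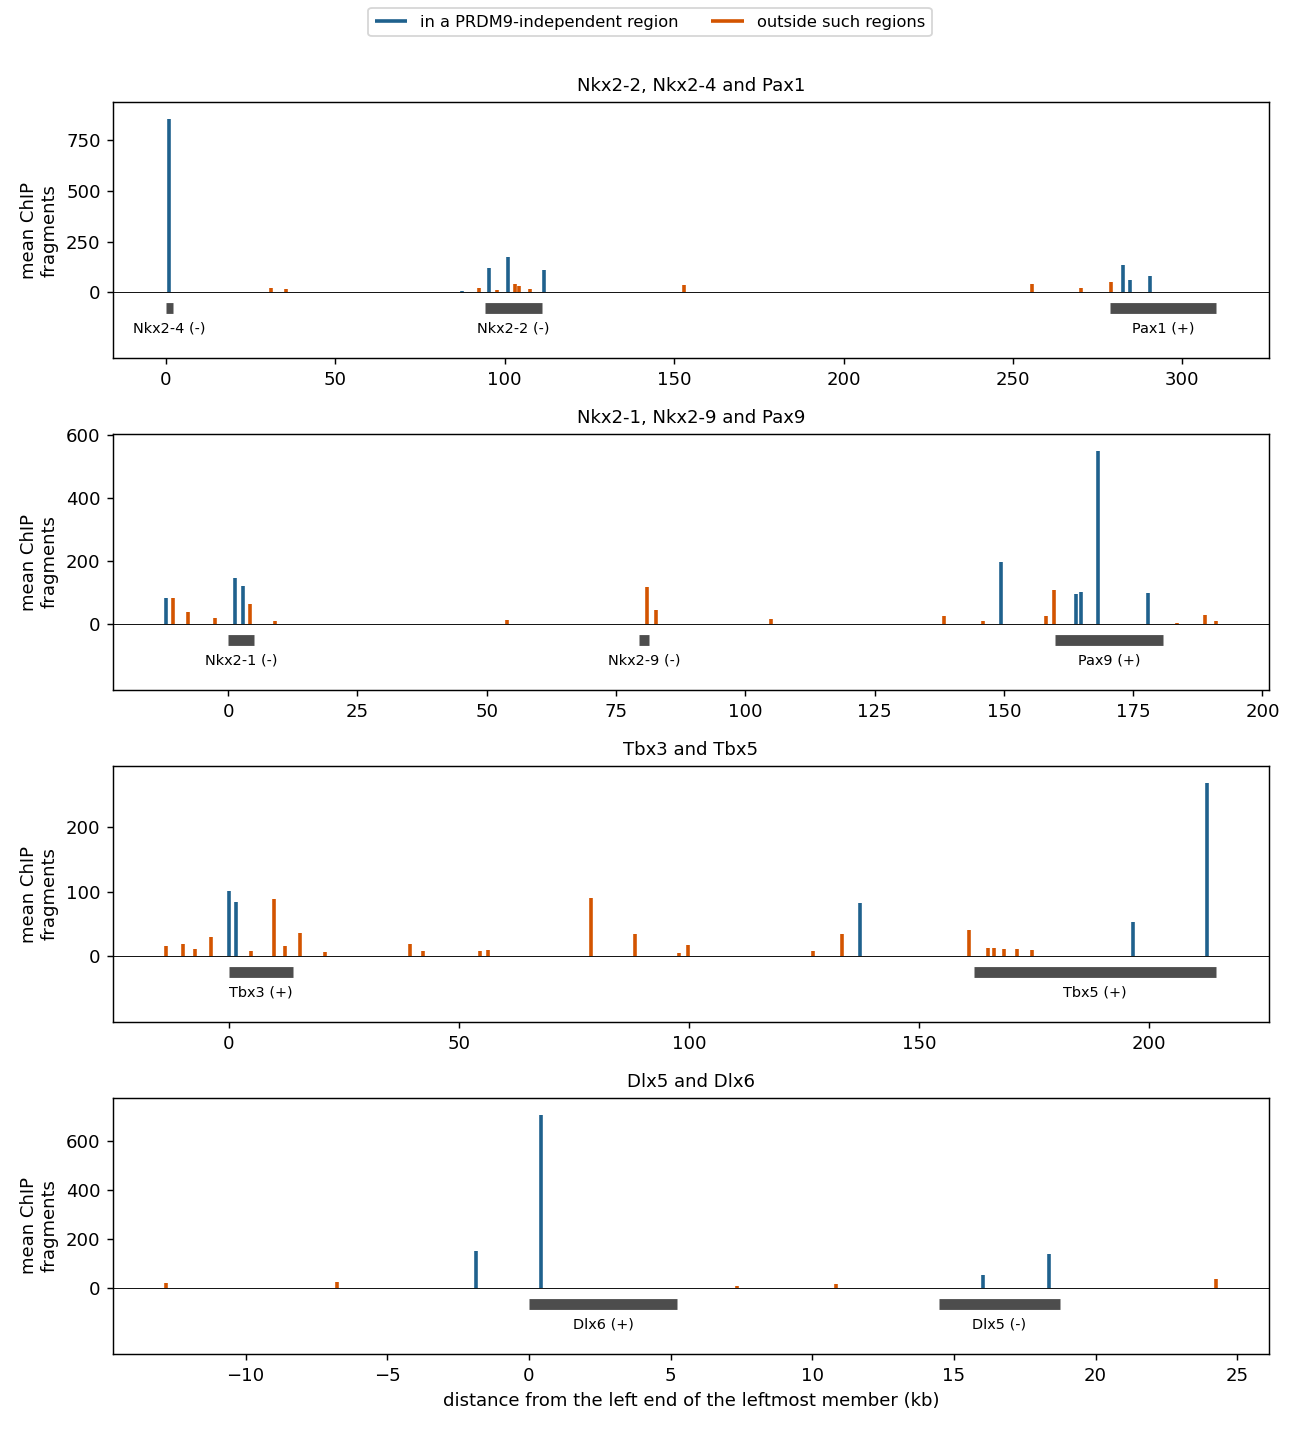
Mean ChIP fragments of every narrow peak in 4 groups of linked members, against distance in kb from the left end of the leftmost gene, with genes as grey bars marked by strand and peaks coloured by whether they lie in a PRDM9-independent region. The tallest peaks stand inside or beside genes and in independent regions, such as 855 fragments at Nkx2-4, 550 in Pax9, 268 in Tbx5 and 704.5 at Dlx6.

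The matched promoters of members had as many CpG dinucleotides as the matched promoters of all genes, with lower coverage above and below 20 of them. RefSeq promoters were found for 46 of the 64 members, and 31 had one whose start lay within 1 kb of the strongest centre, as did 11294 of all genes. These are the matched promoters. Members without a narrow peak, such as Tbx10 and Tbx19, could not enter. The median coverage of the 31 was 248, against 205 over all members with a peak. The median number of CpG dinucleotides in 300 bases was 21 (quartiles 15 and 29) in members and 21 (quartiles 13 and 29) in all genes, and the median G and C content was 66.0% and 61.7%. With 20 or more CpG, the median coverage was 260 over 19 members, against 1270 over 6241 genes, and with fewer it was 123 over 12 members, against 402 over 5053 genes. Coverage followed CpG number with a Spearman correlation of 0.57 over the 31 members, against 0.52 over all, a description in which points share libraries and base composition. Single promoters departed from this order. Of those printed, that of Sox13 has 40 CpG with a coverage of 572.5 and that of Nkx6-2 has 32 with 839. Those of Pax7 and Nkx2-3 have 17 and 15 with 61 and 60. The promoter of Sox4, with 12 CpG, is not among the 31. The nearest centre to the start of Sox4, with 948 and 976 fragments, lay 1423 bp away and outside this promoter.

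**Figure D5:**
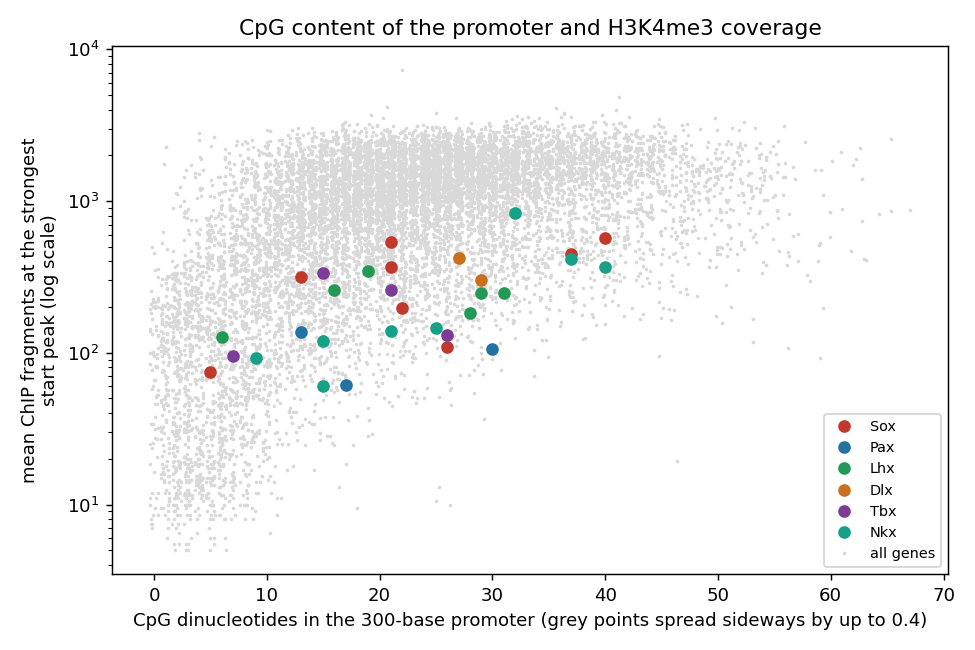
Mean ChIP fragments at the strongest start peak (log scale) against the number of CpG dinucleotides in the 300-base RefSeq promoter. The 31 members with a matched promoter are coloured by family, and the 11294 autosomal protein-coding genes with one are in grey. Members with 20 or more CpG have a median of 260 fragments and all genes with 20 or more 1270.

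Core promoter motifs were searched by their letters on both strands of the same 31 promoters and of all 11294. The GC box GGGCGG was found in 20 (64.5%), against 65.0%. The CCAAT box CCAAT was found in 14 (45.2%), against 37.2%, among them Nkx6-2 and Nkx2-3. The TATA box TATAAA was found in 1, Tbx6 (3.23%), against 6.45%. The cyclic AMP response element TGACGTCA was found in 0 of the 31, against 3.11%, and the NRF1 motif in 0, against 1.97%. A match of letters is a description and not a bound site.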

How the data were processed

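H3K4me3 was measured in 2 ChIP libraries and 1 input library. The authors mapped the reads with BWA followed by Stampy (mm10), took out duplicates with SAMtools and computed fragment coverage with SAMtools, bedtools and their own code. The deposited counts are fragments overlapping each narrow peak centre in each library, without normalization. The deposited enrichment is the authors' maximum likelihood ratio to local background, on a scale where 0 is none, and the deposited p-value comes from their likelihood ratio test on both replicates together. Narrow peaks passed a p of 1e-06 with centres at least 1 kb apart. Broad peaks were called at 1e-05 in bins of 100 bp and deposited, like the PRDM9-independent regions, as positions only. Because calling was joint, replicates were compared by coverage.

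Each gene took all annotated starts (GENCODE M21), the narrow centres and broad peaks within 1 kb of them, and the centre with the highest mean coverage. The 1 empty row was left out. Replicates were compared by an exact binomial test, checked on simulated data, with Benjamini-Hochberg adjustment over all narrow peaks. The members and lists were chosen with earlier results of these data known. Named genes followed a rule: highest and lowest overall and by family, members without a peak, the widest, those without an independent region, the gonad list and linked pairs; others were chosen after their values were seen. The values of 1 member are not reported here, and the counts and medians include it. Alternatives changed the distance, the starts, the peak threshold, the choice of centre, scaling, overlap and replicates. The tables were made with pandas 2.3.3 and numpy 2.4.6 under Python 3.11.15, the tests with scipy 1.17.1 and the figures with matplotlib 3.10.9.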

Additional observations from a re-analysis of the deposited data

How the results depend on the processing

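Of 31 alternatives, 22 left the result within its interval or spread, 8 moved it and 1 ended a call. The interval of a share runs over genes that have their libraries in common, so this tally does not measure replication. The deposited enrichment has another unit than fragments, so its entry as moved was fixed beforehand. The share of members with a narrow peak was 78.1% within 500 bp and 98.4% within 2 kb, against 71.8% and 80.3% of all genes. The median coverage was 153 with the peak nearest to a start, 246 with start peaks summed and 153 with peakless members counted as 0, against 670, 838 and 431 over all genes, and the deposited enrichment in its place had a median of 9.09 over members and 37.9 over all genes. With the strongest peak of the gene body, an alternative chosen after seeing the data, it was 261, against 723. The overlap with PRDM9-independent regions was 68.8% at 50% of the broad peak, against 70.8% of all genes. The single replicate difference became 0 members with a log2 ratio beyond 2 SD, against 92 of all genes. Leaving out either replicate gave a share with a narrow peak of 90.6% to 90.6% and a median coverage of 193 to 218. Peaks were not called anew, and this share counts joint peaks where the kept replicate was above the input. As all 58 members with a narrow peak had both replicates above the input, the share could not move. No paired analysis was possible because there is 1 condition and the input has no replicate number.

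With 2 ChIP libraries and 1 input, precision is limited by their number, and low members such as Tbx5 and Nkx6-3 rest on few fragments. Peaks were called on both replicates together, so a call does not show that each library supports the peak alone.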
